A study of Mus musculus with 2 samples.

Results

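The 10 genes described here are imprinted genes linked to growth and to the expansion of fat: H19, Igf2, Meg3, Dlk1, Peg3, Mest, Plagl1, Cdkn1c, Grb10 and Nnat. They were taken by symbol from the 24346 gene symbols listed for each library, and all 10 were listed. RNA-seq was performed on the entire omentum, the apron of abdominal fat that carries lymphoid clusters called milky spots, of WT and Postn-DTR mice 5 days after diphtheria toxin (DT), which both genotypes received by intraperitoneal injection. No group without DT was included. Postn-DTR mice are heterozygous, with a DT receptor cassette in the first coding exon of 1 copy of Postn, so DT kills cells that use the Postn promoter, which in the omentum is used by Aldh1a2+ fibroblastic reticular cells (FRCs). The promoter is also active in cells of other organs, such as osteoblasts and myofibroblasts. Whatever DT did there was not separated from its effect in the omentum. Within the omentum, the paper reports that DT also removed part of another FRC fraction. The allele was made with CRISPR/Cas9. Age, sex and the number of mice behind each library were not stated. There was 1 library per genotype, so no spread between animals could be measured, no test between genotypes was possible, and no difference below has a replicate check.

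An imprinted gene is transcribed mainly from the copy inherited from 1 parent, because DNA methylation laid down in the egg or sperm tells the copies apart. The methylated copy is the silent copy for some genes and the expressed copy for others. Many imprinted genes act on growth. Igf2, Dlk1, Peg3, Mest, Plagl1 and Nnat are read from the father's copy, and H19, Meg3, Cdkn1c and Grb10 from the mother's. Paternally expressed genes often favour growth and maternally expressed genes often restrain it, with exceptions among single genes and cell types. Most are highly active in the fetus and are turned down after birth, and in adult fat their transcripts come from precursor cells, stromal cells and, for some genes, adipocytes. The libraries give 1 value per gene and do not tell the copies apart, so allelic expression was not measured.

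The start regions of the 4 members with the largest FPKM ratios between the libraries are shown first, followed by Peg3, for which a PLAGL1 motif was found. The sequences are RefSeq promoter windows of 300 bases around an annotated transcript start on GRCm38.p6, read 5′ to 3′ on the strand of the gene. CpG dinucleotides, the sites at which an imprint can be methylated, are in capitals.
Nnat (chr2:157559828-157560127, plus strand): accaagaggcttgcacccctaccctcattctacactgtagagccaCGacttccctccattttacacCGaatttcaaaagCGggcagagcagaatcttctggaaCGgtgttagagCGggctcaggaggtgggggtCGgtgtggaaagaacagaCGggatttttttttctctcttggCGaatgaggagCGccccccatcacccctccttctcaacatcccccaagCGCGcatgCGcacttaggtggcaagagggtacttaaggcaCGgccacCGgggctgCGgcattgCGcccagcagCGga
Mest (chr6:30737800-30738099, plus strand): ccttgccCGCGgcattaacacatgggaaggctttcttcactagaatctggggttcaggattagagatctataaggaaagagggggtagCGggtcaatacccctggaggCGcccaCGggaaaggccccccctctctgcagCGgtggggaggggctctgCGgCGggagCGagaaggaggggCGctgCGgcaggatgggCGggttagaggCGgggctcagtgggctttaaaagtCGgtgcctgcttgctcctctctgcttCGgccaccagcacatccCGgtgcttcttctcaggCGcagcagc
Dlk1 (chr12:109452573-109452872, plus strand): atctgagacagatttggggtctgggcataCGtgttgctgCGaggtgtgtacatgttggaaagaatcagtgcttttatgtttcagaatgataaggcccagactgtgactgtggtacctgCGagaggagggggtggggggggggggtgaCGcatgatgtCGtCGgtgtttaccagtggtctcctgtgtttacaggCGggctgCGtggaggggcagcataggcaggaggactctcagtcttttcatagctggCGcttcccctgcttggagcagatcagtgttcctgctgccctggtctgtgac
Plagl1 (chr10:13090582-13090881, plus strand): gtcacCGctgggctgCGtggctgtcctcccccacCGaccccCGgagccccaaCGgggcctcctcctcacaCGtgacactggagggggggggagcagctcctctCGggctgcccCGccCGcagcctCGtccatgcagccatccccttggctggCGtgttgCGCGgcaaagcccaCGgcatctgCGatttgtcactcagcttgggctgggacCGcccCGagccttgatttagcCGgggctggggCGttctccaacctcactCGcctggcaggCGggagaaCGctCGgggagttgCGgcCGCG
Peg3 (chr7:6730370-6730669, minus strand): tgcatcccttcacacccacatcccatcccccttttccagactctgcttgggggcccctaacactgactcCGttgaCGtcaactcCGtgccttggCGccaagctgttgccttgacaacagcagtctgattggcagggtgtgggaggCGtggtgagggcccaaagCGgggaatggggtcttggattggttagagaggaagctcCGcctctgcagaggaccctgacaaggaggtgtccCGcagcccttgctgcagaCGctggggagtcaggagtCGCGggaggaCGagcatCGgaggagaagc

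Mest has 3 windows, of which the second is shown, since it overlaps the third almost entirely. The Nnat window held 17 CpGs, the Mest window 17, the Dlk1 window 9, the Plagl1 window 26 and the Peg3 window 13, against a median of 7 over all 32851 RefSeq windows. Observed over expected CpG was 0.69 for Nnat, 0.59 for Mest, 0.427 for Dlk1, 0.696 for Plagl1 and 0.463 for Peg3, with a median of 0.384 over all windows. RefSeq windows were found for 8 of the 10 members, 15 windows in all. H19 and Cdkn1c had none. The motif GGGGCCCC, which PLAGL1 binds and which reads the same on both strands, was found in 1 of the 15 windows, that of Peg3, at bases 50 to 57, and in 1.08% of all windows. The GC box GGGCGG was found on either strand in 7 of the 15 windows, including those of Mest and Plagl1, against 35.7% of all windows. The TATA box TATAAA was found in 1 window, of Meg3, against 13.6% of all windows. The YY1 motif AAGATGGC was found in 0 of the 15 windows and in 2.75% of all. Of the starts annotated in GENCODE, 7 of 10 for Nnat, 21 of 25 for Plagl1, 3 of 4 for Peg3, 3 of 11 for Mest and 2 of 10 for Dlk1 lay inside the window shown. Only these letters were searched, and the FPKM of a gene does not tell which of its start sites was used.

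Levels are given as FPKM, which scales fragments to the length of the transcript and the size of the library. From the steps between low values, WT was estimated to hold 23100000 fragments and Postn-DTR 24000000. The targeted gene, Postn, was at 58.3 in WT and at 16.2 in the library labelled Postn-DTR. Markers of omental fat were present in both libraries. The FPKM of Adipoq, the adipocyte hormone adiponectin, was 955.2 and 635.9, and that of Wt1, a mesothelial transcription factor, was 52.1 and 63.2. Pancreatic acinar genes made up 2.41% of the WT sum, with 13070 FPKM, and 0.00308% of the Postn-DTR sum, with 20.7, and 29 of 29 compared were lower. Below, "change" is the difference of log2(FPKM + 1), Postn-DTR minus WT, "fold" is the plain FPKM ratio, and a gene was called lower or higher when its change reached 2-fold and its mean FPKM was at least 1. Each interval covers counting error only. It was computed from estimated reads with the shortest transcript among those GENCODE tags as basic, and as CCDS where a gene had any. For the 7 members whose kept transcripts differ in length, a longer transcript would narrow it. The effect is small for Cdkn1c (1888 to 1901 bases), Grb10 (4755 to 5061) and Mest (2383 to 2665). Estimated reads of the members ran from 28.8 for H19 to 2990 for Grb10 in WT and from 10.5 for Dlk1 to 2560 for Grb10 in Postn-DTR.

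Of the 10 members, 8 reached the expression minimum. Nnat rose, Mest and Plagl1 fell, and the other 5 stayed within 2-fold. Thus 2 members were called lower, where 3.12% of all 13127 genes compared were (410 genes), and 1 was called higher, against 3.88% of all genes (509). With acinar genes removed and totals made equal, the split over all genes was 815 lower and 306 higher. At 1.5-fold the numbers were 2 lower (background 8.84%) and 2 higher, with Peg3 added (background 9.86%). Each of the 8 genes weighs heavily in such a share, so the counts are descriptions. The median change of the 8 was 0.06, beside 0.02 over all genes compared, and 4 were lower and 4 higher. The sign of this median depends on the setting, since it was -0.26 at equal totals without acinar genes and -0.035 after scaling to the 75th percentile. With a minimum of 10 FPKM only Meg3, Nnat and Grb10 remained, so the median of -0.18 was the change of Meg3 itself. The members did not share a direction. Their summed FPKM went from 161.9 to 230.7, with Nnat making up 19.4% of it in WT and 49.0% in Postn-DTR.

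**Figure D1:**
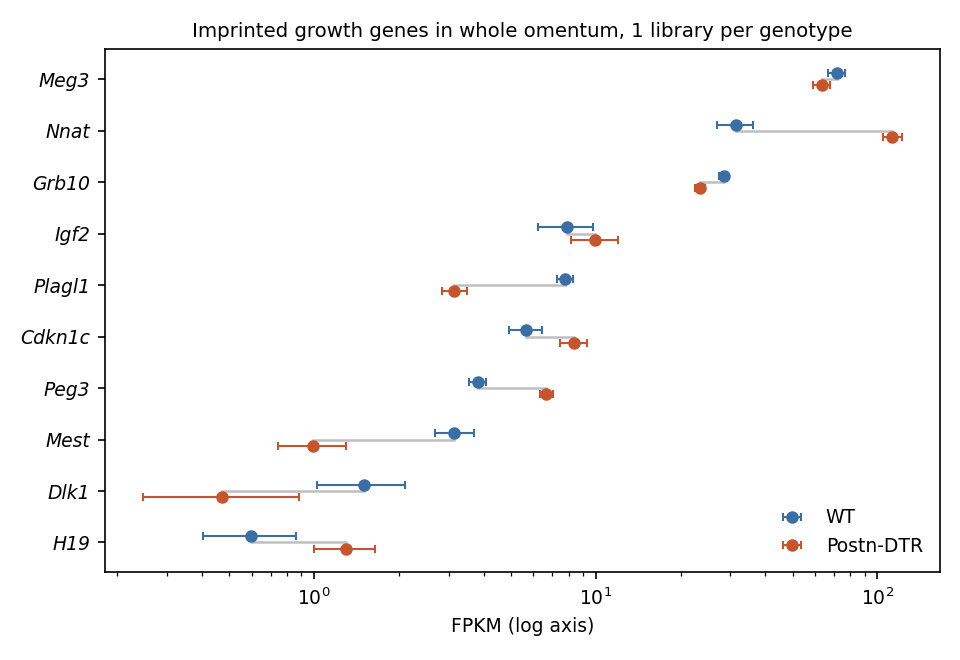
FPKM of the 10 members on a log axis, in the WT library (blue) and the Postn-DTR library (orange). Bars are 95% Poisson intervals from estimated reads and cover counting error only. Nnat moved from 31.4 to 113.0 and passed Meg3. At the shortest transcript length, used here, the bars of both libraries overlap for Igf2 and Meg3, and a greater length would make them narrower.

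In WT the order of levels was Meg3, Nnat, Grb10, Igf2, Plagl1, Cdkn1c, Peg3, Mest, Dlk1 and H19, from 71.8 down to 0.597 FPKM. Meg3 ranked 1154 of the 24346 genes and H19 ranked 13800. Igf2 (7.89) and Plagl1 (7.79) stood next to each other and differed by less than the counting error. In Postn-DTR the order was Nnat, Meg3, Grb10, Igf2, Cdkn1c, Peg3, Plagl1, H19, Mest and Dlk1. Nnat climbed from rank 2813 to rank 801 and Plagl1 dropped from 8127 to 10723. In that library H19 (1.29, interval 1.0 to 1.65) and Mest (0.994, interval 0.741 to 1.30) were not separable.

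**Figure D2:**
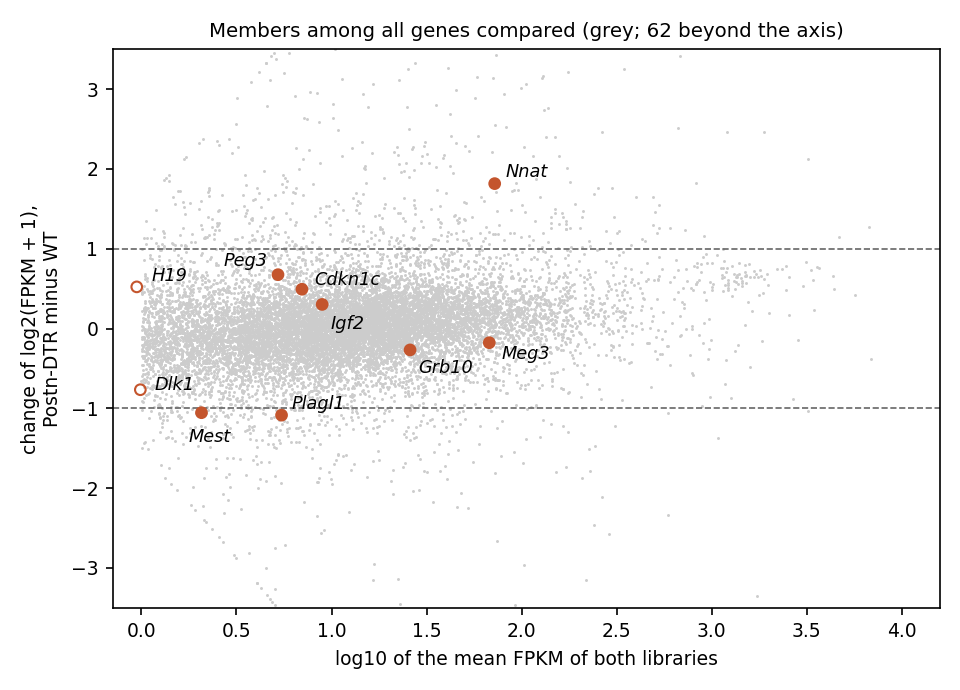
Difference between the libraries in log2(FPKM + 1), with Postn-DTR above WT as positive, against the log10 of the mean FPKM for the 13127 genes compared (grey), with the members in orange. Dashed lines mark 2-fold and open circles are the 2 members under the expression minimum. Nnat lies above the upper line, Plagl1 and Mest lie just below the lower line, and the remaining members lie between the lines.

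Nnat (ENSMUSG00000067786, GRCm38 chromosome 2, 157560078 to 157562522, plus strand) encodes neuronatin, a small protein of the endoplasmic reticulum membrane that acts on calcium handling and is made in brain, endocrine cells and fat. Its FPKM was 31.4 in WT and 113.0 in Postn-DTR. It was thus 3.60-fold higher (interval 3.07 to 4.26), with a change of 1.82. The entire gene lies within Blcap, a broadly expressed gene on the opposite strand, whose FPKM was 33.1 and 29.3. The Nnat to Blcap ratio, which no scaling of a library can alter, went from 0.949 to 3.85. Relative to Adipoq, Nnat went from 0.0329 to 0.178, but Adipoq itself was lower in Postn-DTR. Of 8 adipocyte markers 6 were lower, while Fabp4 (4879 and 6519) and Cidec (512.8 and 591.5) were higher. Of the hormones of pancreatic islet cells, which also make neuronatin, Ins1, Iapp and Sst were listed at 0 in both libraries. Gcg was at 0.0965 and Ppy at 0.154 in WT, and both were at 0 in Postn-DTR. With Chga, which is not a hormone of islets alone, at 1.48 and 0.346, the 6 islet markers summed to 1.73 FPKM in WT and 0.346 in Postn-DTR. Macrophage markers moved in the same direction as Nnat, with 5 of 5 higher and sums of 2819 FPKM and 4541 FPKM. Of the 5, 3 were called higher, beside 3.88% of all genes compared. Whether islet cells or macrophages bear on the Nnat value was not tested.

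Mest (ENSMUSG00000051855, chromosome 6, 30723547 to 30748465, plus strand) encodes a member of the alpha/beta hydrolase fold family, and its mRNA in white fat is known to follow fat expansion. Its FPKM was 3.14 in WT and 0.994 in Postn-DTR, which is 3.16-fold lower (interval 2.31 to 4.43) with a change of -1.05. These values rest on about 159 and 52.1 estimated reads. Copg2, which overlaps its end on the opposite strand by 912 bases, was at 14.2 and 11.1, so the Mest to Copg2 ratio went from 0.221 to 0.0892. Of 4 genes reported to vary with Mest in fat, 2 were compared and 0 were called, beside 3.12% called lower and 3.88% higher over all genes. Npr3, the natriuretic peptide clearance receptor, was at 6.51 and 3.06, and Lep, which encodes leptin, at 22.7 and 20.3. Sfrp5, a secreted Wnt inhibitor, and Bmp3, a BMP ligand, lay under the minimum, at 0.303 and 0.0489 for Sfrp5 and at 0.767 and 0.471 for Bmp3. Adipocyte markers were lower in 6 of 8 genes, 0 of them called, with a median change of -0.57, and their summed FPKM was 16090 in WT and 14930 in Postn-DTR. In whole tissue, fewer cells of a type and less RNA per cell cannot be told apart.

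Plagl1 (ENSMUSG00000019817, chromosome 10, 13060504 to 13131694, plus strand) encodes a zinc finger transcription factor, also called ZAC1, that stops the cell cycle and binds other imprinted genes. Its FPKM was 7.79 in WT and 3.14 in Postn-DTR, which is 2.48-fold lower (interval 2.196 to 2.8) with a change of -1.09. Its neighbour Phactr2 was at 6.39 and 5.58. Peg3 (ENSMUSG00000002265, chromosome 7, 6703892 to 6730431, minus strand), another zinc finger protein, also called PW1, marks stem and progenitor cells in many adult tissues. Its FPKM was 3.80 and 6.67, in the opposite direction to Plagl1. It was 1.75-fold higher (interval 1.60 to 1.92) with a change of 0.68, short of the call. The other gene of the Peg3 cluster with reads, Zim1, was at 0.273 and 0.402, under the minimum.

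PLAGL1 is known as a node of a network of imprinted genes that are expressed together. Of 17 genes of that network, members included, 14 were compared, of which 3 were called lower and 0 higher, with a median change of -0.22. The backgrounds were 3.12% lower and 3.88% higher. Of the 3, Plagl1 and Mest are members already counted above, and the third was Gatm. Gatm, which encodes an enzyme of creatine synthesis that the pancreas also makes, was at 36.1 and 13.4. The acinar genes fell with it, and their part in its decrease was not tested. Dcn, the matrix proteoglycan decorin, was at 1875 and 2152, and Gnas, the G protein subunit that couples receptors to cyclic AMP, at 606.4 and 487.0. The network genes did not share a direction, since 9 were lower and 5 higher.

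Igf2 (ENSMUSG00000048583, chromosome 7, 142650766 to 142666816, minus strand) encodes insulin-like growth factor 2, the main growth factor of the fetus. Its FPKM was 7.89 in WT and 9.96 in Postn-DTR, or 1.26-fold higher (interval 0.943 to 1.71). The interval includes a ratio of equality, but it rests on the shortest transcript, with 82.4 and 108 estimated reads. For the longest transcript the estimates were 825 and 1080, which would make the interval narrower. The change of 0.30 became -0.0073 after acinar genes were removed and totals made equal, which mostly rescales the unequal FPKM sums. H19 (ENSMUSG00000000031, chromosome 7, 142575529 to 142578143, minus strand) is a long non-coding RNA that shares enhancers with Igf2 and is read from the other parental copy. Its FPKM was 0.597 and 1.29, or 2.17-fold higher (interval 1.37 to 3.47), from about 28.8 and 64.8 estimated reads. Its mean lay under the expression minimum, so it was not called, and its change was 0.52. The Igf2 to H19 ratio was 13.2 and 7.71, but the counting intervals of the H19 and Igf2 folds, taken at the shortest transcripts, overlap. With a pseudocount of 5 the H19 change (0.17) was below that of Igf2 (0.22). Igf2r, the imprinted receptor that clears IGF2, was at 12.4 and 10.9.

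Among 15 genes of IGF signalling 13 were compared, with 2 called lower, 1 higher and a median change of -0.21. Over all genes compared, 3.12% were called lower and 3.88% higher. The binding proteins, which hold IGFs in the tissue, included both lower calls. Igfbp5 fell from 336.6 to 118.0 and Igfbp2 from 60.9 to 25.5. The other binding proteins compared were within 2-fold and not all in the same direction, with Igfbp3 at 72.99 and 117.7 (change 0.68), Igfbp4 at 1084 and 831.7, Igfbp7 at 1048 and 879.0 and Igfbp6 at 629.5 and 542.8. Irs2, an adaptor downstream of the insulin and IGF1 receptors, rose from 7.25 to 16.8, and its relative Irs1 was at 4.80 and 2.04 with a change of -0.93. Igf1, the growth factor of postnatal life, was at 44.9 and 27.2, above Igf2 in both libraries on this length-scaled measure.

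Dlk1 (ENSMUSG00000040856, chromosome 12, 109452823 to 109463336, plus strand) encodes preadipocyte factor 1, a membrane protein related to Notch ligands that keeps fat precursors from maturing. Its FPKM was 1.503 in WT and 0.471 in Postn-DTR, or 3.19-fold lower (interval 1.49 to 6.65). These are low levels, with about 32.3 and 10.5 estimated reads for the shortest transcript and 155 and 50.4 for the longest. The mean lay under the minimum, and the change was -0.77. Chga, a granule protein of endocrine cells, was at 1.48 and 0.346 and moved with Dlk1, which endocrine cells can also express. The part of such cells in the Dlk1 value was not tested.

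Meg3 (ENSMUSG00000021268, chromosome 12, 109541001 to 109571726, plus strand), a long non-coding RNA that limits proliferation, lies downstream of Dlk1 and is read from the other parental copy. It was the most abundant member in WT. Its FPKM was 71.8 and 63.4, or 1.13-fold lower (interval 1.03 to 1.25) with a change of -0.18. Rian and Mirg, non-coding RNAs further along the same strand that are thought to belong to the same long transcription unit, were at 19.4 and 9.80 for Rian and at 2.66 and 1.29 for Mirg. Their changes of -0.92 and -0.68 were larger than that of Meg3, although neither was called. The Rian to Meg3 ratio went from 0.271 to 0.155 and the Mirg to Meg3 ratio from 0.0371 to 0.0203. The Mirg to Rian ratio was 0.137 and 0.131. Relative to Meg3, Rian was thus 1.75-fold lower and Mirg 1.83-fold lower in Postn-DTR, while their ratio to each other hardly moved. Meg3 has 11 annotated transcripts, and those kept for the read estimates ran from 706 to 14548 bases. The deposited values do not separate them. At the far ends of the cluster Begain was at 7.56 and 11.98, and Dio3, an enzyme that inactivates thyroid hormone, at 0.258 and 0.747, under the minimum.

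**Figure D3:**
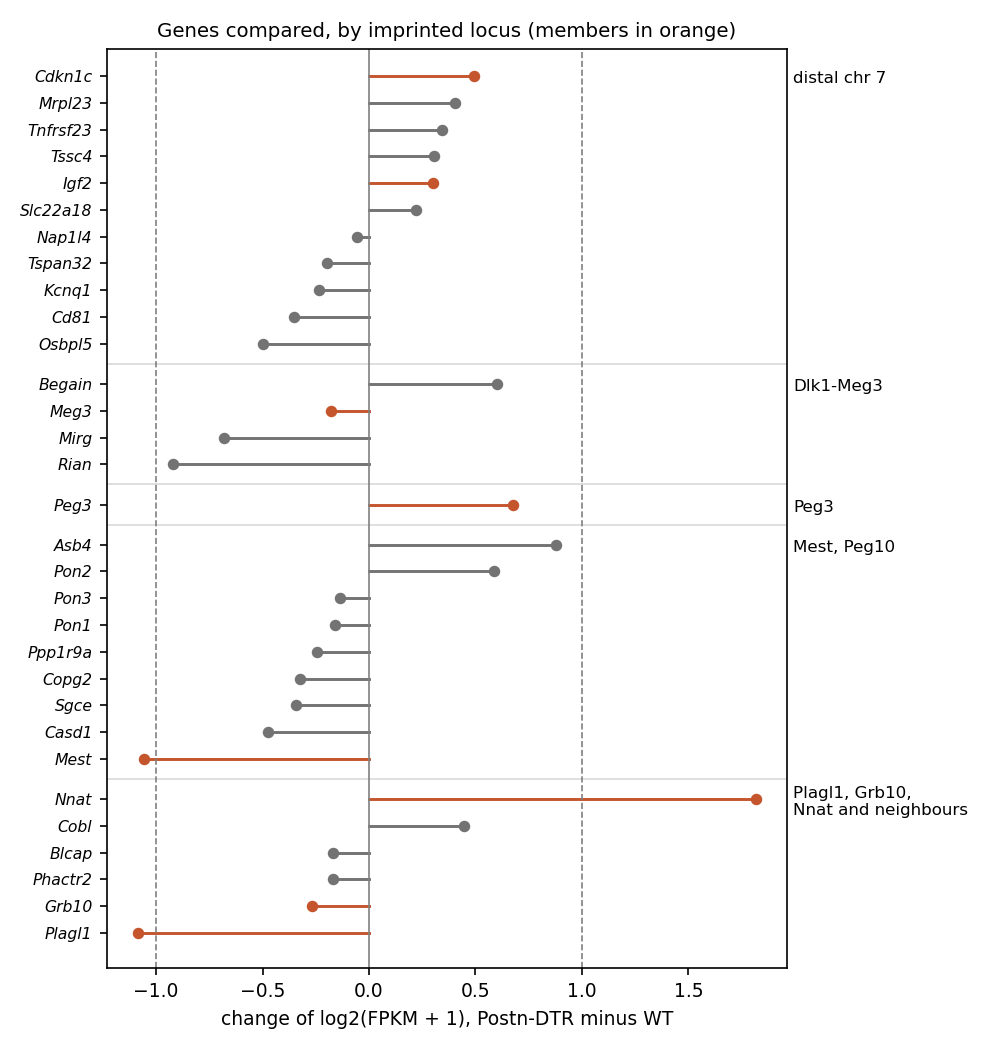
Difference in log2(FPKM + 1), positive where Postn-DTR was higher, for each gene compared, grouped by imprinted locus, with members in orange and neighbours in grey. Dashed lines mark 2-fold. Nnat, Mest and Plagl1 pass them while their neighbours do not, and Rian and Mirg lie below Meg3.

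Of 13 genes of DLK1 processing and Notch signalling, 11 were compared, 1 was called lower and 0 higher, with a median change of -0.34. The shares over all genes were 3.12% lower and 3.88% higher. The call was Notch3, the Notch receptor of pericytes and vascular smooth muscle, which fell from 21.3 to 3.53, or 6.03-fold. Among the pericyte and smooth muscle markers, Rgs5 fell from 30.6 to 2.56, Cspg4 was at 7.60 and 3.60, and Acta2, the smooth muscle actin, was at 94.6 and 108.9. Of the 5 smooth muscle and pericyte markers 3 were lower, 1 of them called, and their summed FPKM was 292.7 in WT and 284.7 in Postn-DTR. Their part in the Notch3 value was not tested. Adam17, the protease that sheds DLK1, was at 23.6 and 17.6. Notch2 was at 15.7 and 18.6, and the ligand Dll1 at 4.54 and 2.21 with a change of -0.79. Of the Notch targets, Hes1 was at 12.3 and 12.8 and Hey1 at 8.95 and 5.26 with a change of -0.67.

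Cdkn1c (ENSMUSG00000037664, chromosome 7, 143458339 to 143461050, minus strand) encodes p57, an inhibitor of cyclin-dependent kinases. Its FPKM was 5.64 in WT and 8.34 in Postn-DTR, or 1.48-fold higher (interval 1.24 to 1.76) with a change of 0.49. Its relative Cdkn1a, which encodes p21 and is not imprinted, rose from 33.7 to 112.3, so the Cdkn1a to Cdkn1c ratio went from 5.98 to 13.5. Grb10 (ENSMUSG00000020176, chromosome 11, 11930508 to 12038683, minus strand) encodes an adaptor that binds the insulin and IGF1 receptors and dampens their signal. It had an FPKM of 28.4 and 23.4, or 1.21-fold lower (interval 1.15 to 1.28) with a change of -0.27. Of 8 relatives of these genes 7 were compared, with 1 called higher, Cdkn1a, and 0 lower, beside 3.88% higher and 3.12% lower over all genes. Cdkn2c, an inhibitor of CDK4 and CDK6, was at 81.5 and 51.4, Cdkn2d at 16.2 and 29.4 and Grb14 at 3.36 and 2.33.

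**Figure D4:**
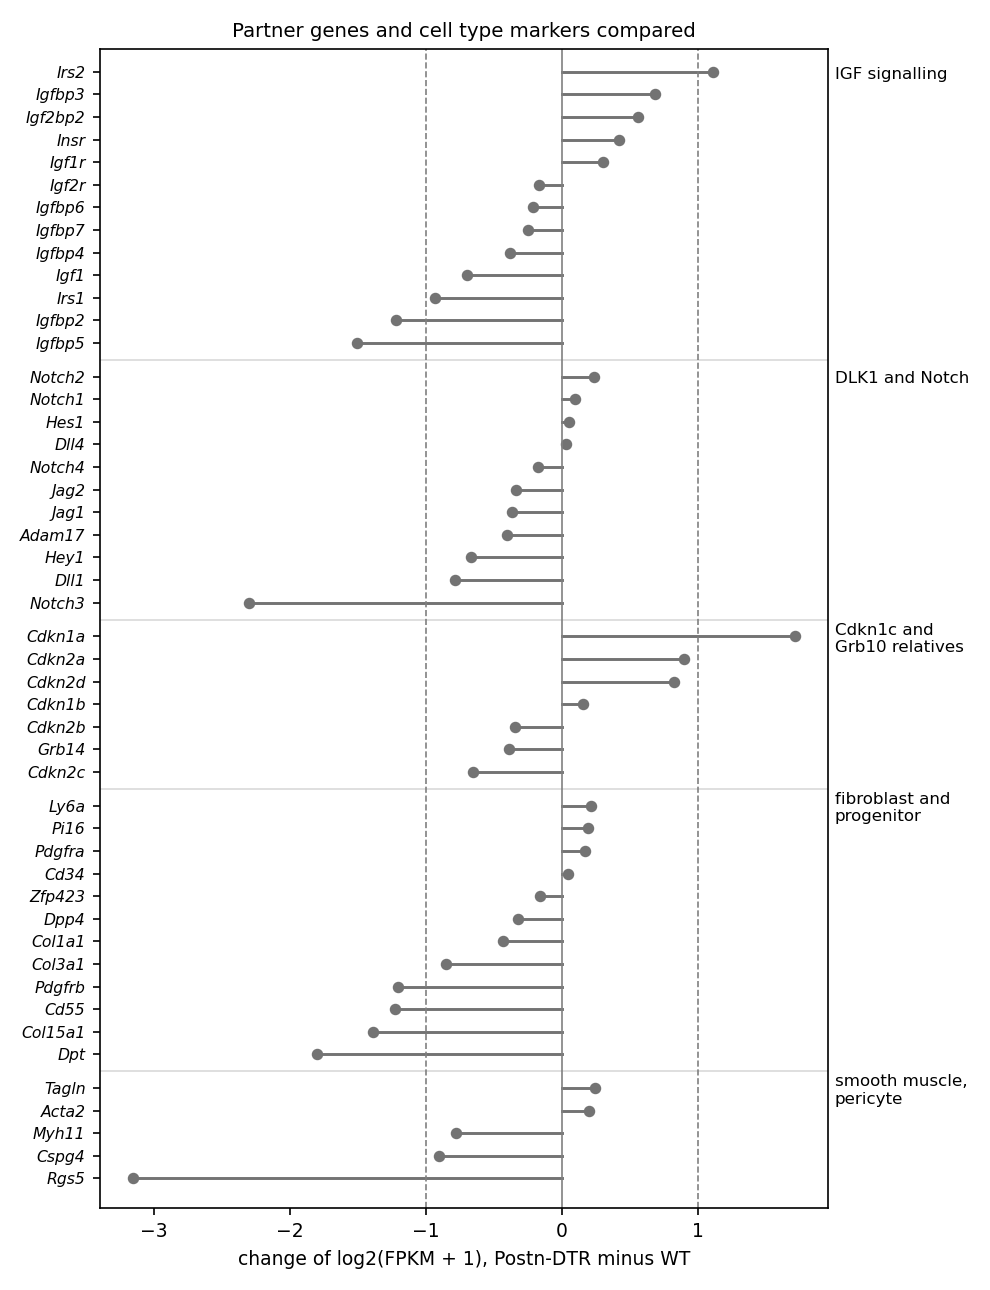
Difference in log2(FPKM + 1), positive where Postn-DTR was higher, for the compared genes of 5 lists, each stick being 1 gene and dashed lines marking 2-fold. Rgs5 and Notch3 reach furthest to the left, at -3.15 and -2.30, and Cdkn1a and Irs2 pass the right line.

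The members were set beside 56 other imprinted genes, of which 35 were compared. Of these 2 were called lower and 0 higher, beside the same backgrounds of 3.12% and 3.88%, and their median change was -0.20. The calls were Gatm, described above, and Snrpn, a splicing protein gene, which went from 4.54 to 1.33. Snurf, which shares a transcript with Snrpn, was at 0.897 and 1.2004, so the separate values of this pair are uncertain. Ndn, which encodes necdin and restrains fat precursors, was at 21.2 and 12.9 with a change of -0.68. Sgce was at 43.0 and 33.7 and Cd81 at 344.6 and 270.1. In the cluster of distal chromosome 7 that holds H19, Igf2 and Cdkn1c, 11 of 18 genes were compared, 0 were called, and the changes ran from -0.50 to 0.49.

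Read by the parental copy they are expressed from, the 5 paternally expressed members compared ranged from -1.09 to 1.82, with a median change of 0.30, and held all 3 calls. The 3 maternally expressed members compared ranged from -0.27 to 0.49, with a median of -0.18. Over all genes 3.12% were called lower and 3.88% higher. The calls of Mest and Plagl1 lie close to the 2-fold line on the log2(FPKM + 1) scale and are lost with a pseudocount of 5. Whether the calls go with the parental copy was not tested. Of 8 genes that maintain imprints 0 were called, and the most abundant were Trim28 at 51.1 and 49.8, Ctcf at 21.4 and 17.6 and Zfp445 at 14.2 and 15.6. Uhrf1, which brings the methyltransferase DNMT1 to replicating DNA, was just short of the call at 8.71 and 4.002 with a change of -0.96, and Dnmt1 had a change of -0.49. The 12 microRNA genes hosted by these loci, among them Mir675 of H19, Mir483 of Igf2 and Mir335 of Mest, were all listed at 0 in both libraries. The libraries were made from polyadenylated RNA, and these 3 overlap their hosts on the same strand by 84, 73 and 98 bases. Why the values were 0 was not tested.

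Cell type markers are given because these genes are expressed by stromal cells in adult fat. Of 12 fibroblast and fat progenitor markers 4 were called lower and 0 higher, with a median change of -0.38, beside 3.12% lower and 3.88% higher over all genes. Their summed FPKM was 2820 in WT and 1892 in Postn-DTR. The 4 were Dpt (236.9 and 67.3), Col15a1 (152.8 and 57.7), Cd55 (48.8 and 20.3) and Pdgfrb (41.3 and 17.3). Among those not called, the collagen genes Col3a1 (1264 and 698.8) and Col1a1 (422.35 and 313.0) were lower. The defining fibroblast receptor Pdgfra was at 25.96 and 29.2, and Ly6a, the progenitor marker SCA-1, at 344.8 and 399.0. Of the 12 markers 8 were lower and 4 higher. Mesothelial markers summed to 507.0 and 549.0 FPKM, with 1 of 6 called lower, Lrrn4, at 62.7 and 29.2. Endothelial markers summed to 235.3 and 224.2 with 0 of 5 called. Lymphocyte markers were lower in 6 of 6, 4 of them called, with sums of 346.9 and 242.4. Skeletal muscle markers summed to 3.37 and 3.62 FPKM. Whether any of these shifts bears on the members was not tested.

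**Figure D5:**
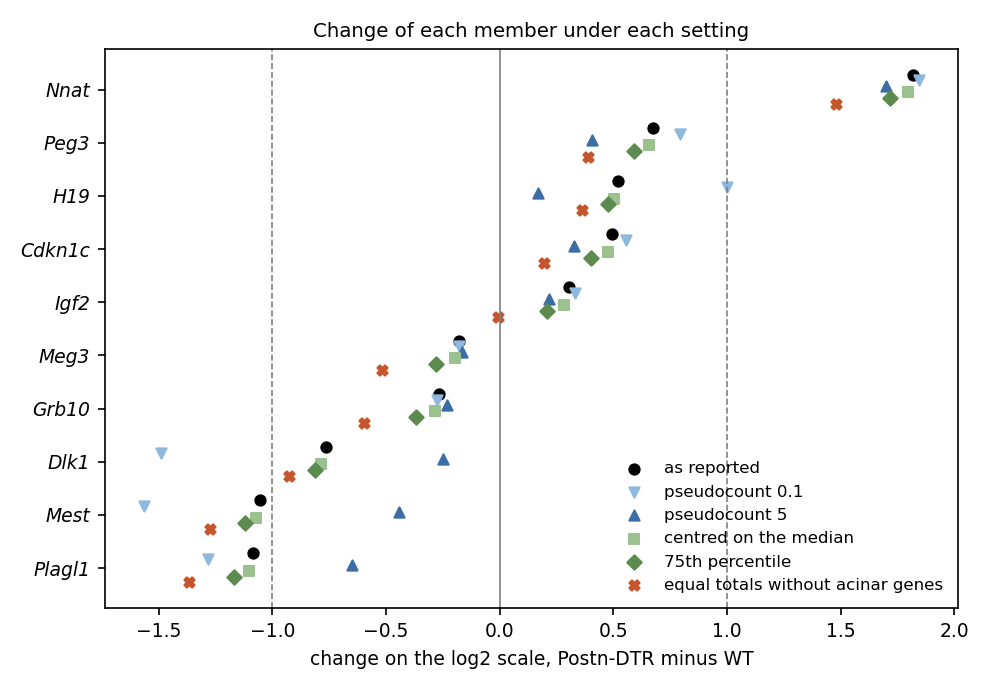
Change of each member on the log2 scale, Postn-DTR minus WT, as reported (black) and under 5 other settings, with dashed lines at 2-fold. Nnat stays above 2-fold throughout, Mest and Plagl1 move inside the lines with a pseudocount of 5, and Igf2 reaches -0.0073 at equal totals without acinar genes.

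The direction of 9 members was the same under all 5 settings, Igf2 being the exception. The range for Nnat was 1.48 to 1.85, for Plagl1 -1.37 to -0.65, for Mest -1.57 to -0.44 and for Dlk1 -1.49 to -0.25. For the last 3 the change nearest to 0 came from a pseudocount of 5, which shrinks the change of genes with low FPKM. Equal totals without acinar genes moved the median of all genes by -0.30, and the changes of Igf2, Meg3 and Grb10 were no larger than that shift.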

How the data were processed

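Total RNA of whole omentum was made into stranded poly(A) libraries, 1 per genotype, and grouped by the genotype label. The authors deposited FPKM values, 1 per gene symbol. The submitters' processing notes name TopHat2 2.1.1, Bowtie2 2.2.8, SAMtools 0.1.18, Cuffdiff 2.2.1 and the build mm10. The annotation, the scaling between libraries and the use of strand in counting were not given in the sources used here, so overlapping genes may share reads. Of 24346 symbols 23310 matched GENCODE M21 (GRCm38), from which positions and lengths were taken, and promoter windows came from RefSeq (GRCm38.p6).

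Changes of log2(FPKM + 1) were computed with pandas 2.3.3 and NumPy 2.4.6 for 13127 genes whose mean FPKM reached 1. The code was checked on simulated data, with planted folds well past the threshold in genes of at least 10 FPKM with high counts. That check held no spread between animals and does not bear on how sure the calls of the members are. No test between genotypes was made. Reads were estimated by finding the library size at which low FPKM of genes with a single transcript came out whole within 0.1, with lengths reduced by 198 bases. This held for 72.9% of 723 values in WT and 74.0% of 685 in Postn-DTR. The commonest ratio of low values (0.967) put Postn-DTR at 1.03 times the WT depth. It comes from the same steps between low values, so it is not a separate check. Intervals are 95% Clopper-Pearson (ratios) and exact Poisson (FPKM) and cover counting error only. All 10 members are named. From the other lists only some genes are named, not every gene past 2-fold or among the most abundant. They were chosen after their values were seen. The members and lists were chosen with earlier results of these data known. Figures were drawn with matplotlib 3.10.9.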

Additional observations from a re-analysis of the deposited data

How the results depend on the processing

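Leaving out a library could not be run, since each genotype has 1. The call of Nnat as higher was kept under every alternative, and 1 member was called higher under each except the 1.5-fold threshold, where Peg3 made it 2. The 2 lower members became 0 with a pseudocount of 5 and at 3-fold. They also became 0 with an expression minimum of 10 FPKM, because the means of Mest (2.07) and Plagl1 (5.46) lie under it. Both lie close to the 2-fold line on the log2(FPKM + 1) scale, while the plain fold of Mest was 3.16 (interval 2.31 to 4.43). The median change of the members was -0.26 at equal totals without acinar genes and also turned negative, to -0.035, after scaling to the 75th percentile. With the minimum of 10 FPKM it was -0.18, the change of Meg3, since only Meg3, Nnat and Grb10 remained. Of the other imprinted genes, the 2 called lower became 1 under that pseudocount (5) or the minimum of 10 FPKM, 4 at equal totals, 5 at the 1.5-fold threshold and 0 at 3-fold. The 0 called higher became 1 with a pseudocount of 0.1 and at 1.5-fold. Their median change was -0.49 at equal totals, -0.32 with the minimum of 10 FPKM and -0.023 without a minimum. Over all genes, 410 lower and 509 higher became 815 and 306 at equal totals, 168 and 287 with a pseudocount of 5, 173 and 303 under the 10 FPKM minimum, 1160 and 1294 for 1.5-fold, and 153 and 199 for 3-fold, and the lower ones 643 with a pseudocount of 0.1. Of 50 changes of single members under alternatives, 12 moved by more than the counting error. Depth limits Dlk1, H19 and Mest the most, and no alternative stands in for a second animal.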
